A study of Mus musculus with 2 samples.

Results

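Integrin and laminin subunit genes were compared between a pool of slow and a pool of fast skeletal muscle fibres of the mouse, with 1 Agilent expression array per pool. The members were the genes for integrin alpha and beta subunits and for laminin alpha, beta and gamma chains that a probe's RefSeq accession identified on the array. They comprised 37 of the 23458 genes with a named probe, namely 18 integrin alpha, 8 integrin beta and 11 laminin chain genes. The slow pool held 1659 single fibres of the soleus that carried green fluorescence, and the fast pool held 4447 fibres of the extensor digitorum longus (EDL) without it. All mice, 8 males aged 6 to 8 weeks, were heterozygous for a GFP-Myh7 allele, which marks fibres that make slow myosin heavy chain, so the allele was carried by the source of both pools. The tissue label of the slow pool names the EDL, whereas the soleus, named by its source label and by the protocol, was taken as its origin. Fibre type and muscle of origin thus differed together and cannot be told apart, and the animals were pooled.

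Integrins are cell surface receptors built from 1 alpha and 1 beta subunit that link the extracellular matrix to the actin cytoskeleton. Laminins are heterotrimers of 1 alpha, 1 beta and 1 gamma chain and form the sheet-like network of basement membranes. Skeletal muscle fibres are wrapped in a basement membrane whose main laminin alpha chain is encoded by Lama2, and the integrin of Itga7 with Itgb1 is a major receptor for it. Loss of Lama2 causes muscular dystrophy in mice and humans. Other subunits serve vessels, leukocytes, platelets and epithelia.

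Of the gene probe spots, 50.9% on the slow array and 52.3% on the fast array were well above background, and no spot was saturated. A gene whose spot was well above background is called detected. Levels are log2 processed signals relative to each array's 75th percentile, where 0 is the percentile itself, and every difference is slow minus fast. The software error is the scanner program's own error of a spot, carried through to the log2 difference, and its median over genes measured on both arrays was 0.20. Probes printed repeatedly gave a median SD of the difference of 0.05 between spots. There were no replicates, so no gene was tested, and a size rule of 2-fold was used for description. These errors cover neither animals nor labelling, and precision is limited by having 2 arrays in all. Fibre markers matched the labels of the pools. Myh7, the slow myosin heavy chain, had log2 levels of 11.28 in slow and 3.17 in fast fibres. That difference followed from picking fibres by the fluorescence of the GFP-Myh7 allele. Myh4, the chain of the fastest fibres, had -1.14 in slow and 10.37 in fast fibres.

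Subunits of the muscle fibre receptor stood at nearly equal levels in both pools, whereas the alpha chain of its laminin ligand was higher in slow fibres, and 4 of the 10 vascular subunits were lower there by 2-fold or more, with 1 higher. Of the 37 members, 26 were well above background on both arrays, 1 in slow fibres only, 3 in fast fibres only and 7 on neither array. Among the 30 detected in 1 or both pools, 6 (20.0%) exceeded their fast level by 2-fold or more in slow fibres, against 11.2% of all 14644 genes so detected. A further 8 (26.7%) were lower in slow fibres by 2-fold or more, against 13.9% of all genes. Of the 26 detected in both pools, 6 (23.1%) were past 2-fold in slow and 7 (26.9%) in fast fibres, against 9.82% and 12.4% of the 12846 genes of that kind. After normexp background correction with the 75th percentile, which shrinks differences of dim probes, the members past 2-fold were 5 in slow and 4 in fast fibres. Calls fell over all genes as well, to 5.54% in slow and 6.54% in fast fibres. Under spike-in scaling, which adds 0.39 to every log2 difference, 7 of the 30 members were past 2-fold in slow and 8 in fast fibres. Of all genes, 21.4% were then past 2-fold in slow and 8.96% in fast fibres. The members' slow share thus lay close to that of all genes, while their fast share, again 26.7%, lay above it. The slow share of all calls moved to 70.5%, against 44.5% in the main scaling. The median difference of the 26 was 0.07, against 0.08 over all genes measured on both arrays.

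**Figure D1:**
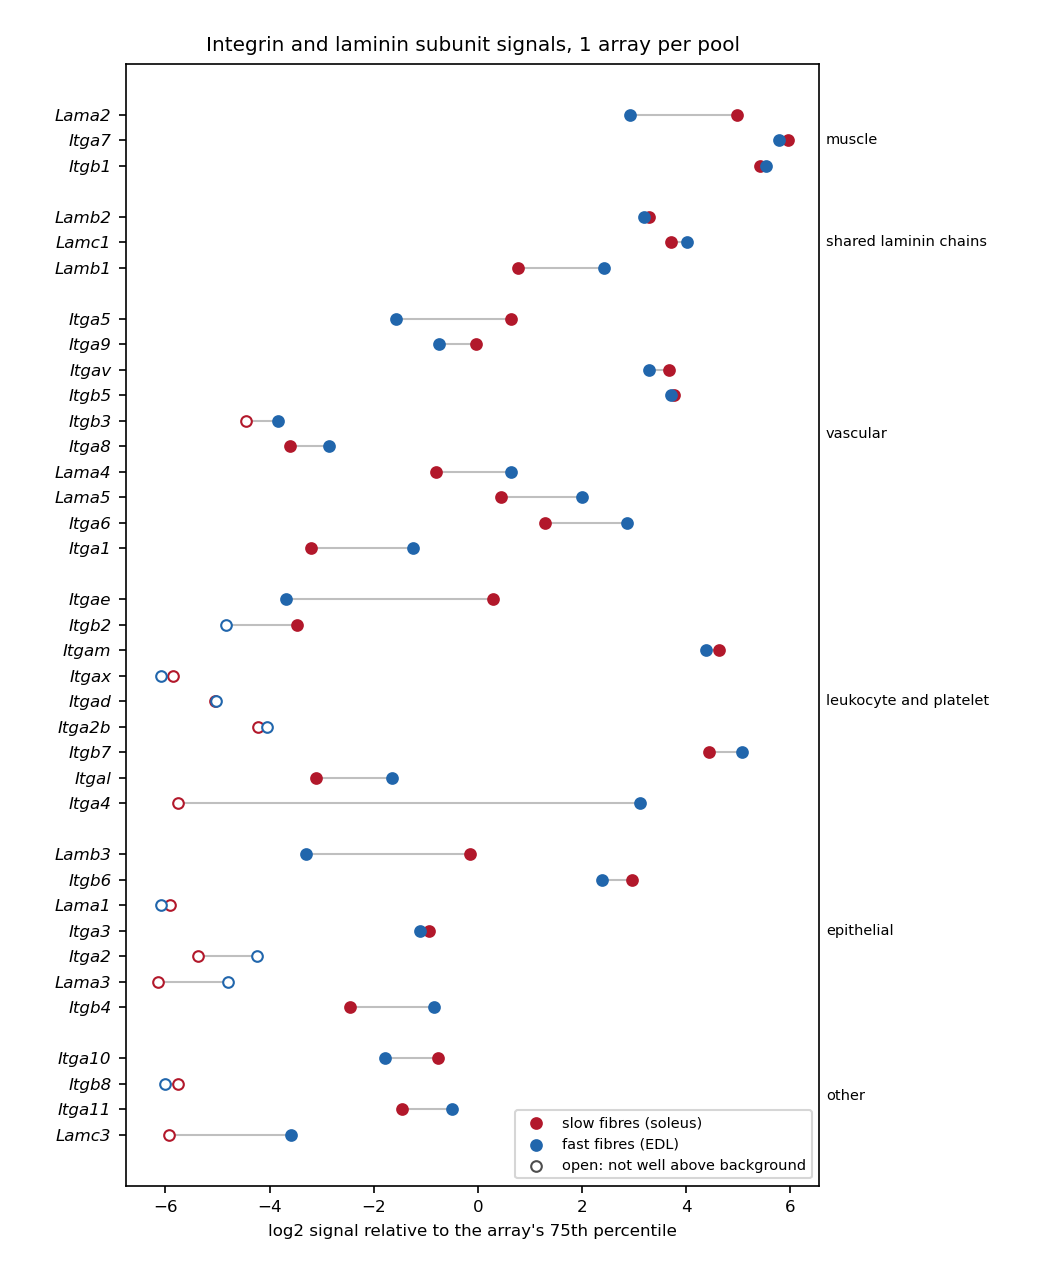
Log2 signal relative to the 75th percentile of each array (horizontal axis) for the named subunit genes, grouped by tissue role, in slow fibres (red) and fast fibres (blue), 1 array each; open symbols mark spots not well above background, and levels of different genes come from different probes and are not comparable. The slow and fast points nearly coincide for Itga7 and Itgb1 and stand apart for Lama2 (4.98 in slow, 2.92 in fast) and Itga4 (-5.77 in slow, 3.13 in fast).

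Promoter sequences are shown for 6 of the members that stood apart by at least 2-fold and had an entry in the RefSeq promoter table (build GRCm38.p6, 250 bases before to 50 after a gene's start), which matched 23 of the 37 members. Lama2 (chr10:27616893-27617192, minus strand), Lamb3 (chr1:193301744-193302043, plus strand) and Itga5 (chr15:103366742-103367041, minus strand) were higher in slow fibres. Itga4 (chr2:79255176-79255475, plus strand), Lama5 (chr2:180225810-180226109, minus strand) and Lamb1 (chr12:31265043-31265342, plus strand) were higher in fast fibres. Each sequence is the window of the table's first entry for the gene, in the direction of transcription, and capitals mark matches to the E-box letters CANNTG, the core bound by myogenic and other basic helix-loop-helix factors, which read the same on both strands.
Lama2: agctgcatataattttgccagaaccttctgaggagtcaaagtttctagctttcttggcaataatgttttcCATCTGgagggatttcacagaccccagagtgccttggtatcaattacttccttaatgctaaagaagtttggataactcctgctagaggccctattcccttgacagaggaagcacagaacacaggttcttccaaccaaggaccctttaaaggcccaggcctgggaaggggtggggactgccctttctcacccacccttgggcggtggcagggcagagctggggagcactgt
Lamb3: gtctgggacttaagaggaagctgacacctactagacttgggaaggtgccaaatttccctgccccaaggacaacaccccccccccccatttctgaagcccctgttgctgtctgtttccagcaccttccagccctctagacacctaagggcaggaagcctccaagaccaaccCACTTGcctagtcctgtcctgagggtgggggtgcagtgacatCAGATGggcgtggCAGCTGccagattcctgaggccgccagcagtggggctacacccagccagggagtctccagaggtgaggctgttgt
Itga5: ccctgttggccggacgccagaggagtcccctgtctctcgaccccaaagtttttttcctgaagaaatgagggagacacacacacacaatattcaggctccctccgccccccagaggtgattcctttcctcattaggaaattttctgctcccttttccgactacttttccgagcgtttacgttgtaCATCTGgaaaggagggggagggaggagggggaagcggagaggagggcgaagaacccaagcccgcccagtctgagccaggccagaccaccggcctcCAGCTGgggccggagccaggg
Itga4: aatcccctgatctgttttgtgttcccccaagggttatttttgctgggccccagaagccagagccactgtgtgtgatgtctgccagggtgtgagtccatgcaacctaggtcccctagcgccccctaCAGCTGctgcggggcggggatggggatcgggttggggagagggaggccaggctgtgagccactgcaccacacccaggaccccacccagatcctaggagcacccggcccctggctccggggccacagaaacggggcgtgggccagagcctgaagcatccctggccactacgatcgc
Lama5: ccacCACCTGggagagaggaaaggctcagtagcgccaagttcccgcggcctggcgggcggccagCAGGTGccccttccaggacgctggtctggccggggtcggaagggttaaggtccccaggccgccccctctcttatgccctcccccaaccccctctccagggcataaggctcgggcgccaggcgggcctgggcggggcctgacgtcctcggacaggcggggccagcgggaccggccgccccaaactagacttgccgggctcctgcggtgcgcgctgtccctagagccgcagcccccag
Lamb1: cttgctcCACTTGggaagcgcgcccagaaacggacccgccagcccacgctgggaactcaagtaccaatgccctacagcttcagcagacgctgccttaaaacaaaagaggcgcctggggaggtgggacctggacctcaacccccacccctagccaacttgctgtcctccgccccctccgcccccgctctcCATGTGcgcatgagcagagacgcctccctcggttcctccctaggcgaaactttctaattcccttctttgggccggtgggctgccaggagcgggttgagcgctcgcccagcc
Lamb3 held 3 E-box matches, Itga5, Lama5 and Lamb1 held 2 each, and Lama2 and Itga4 held 1 each. The letters occurred in 72.1% of all 27025 promoters of that length and in 19 of the 23 member promoters. The GC box GGGCGG, searched on both strands, occurred 4 times in Lama5, 2 times in Itga5 and in Lamb1, once in Lama2 and in Itga4 and not in Lamb3. It was held by 35.9% of all promoters and by 11 of the 23 member promoters. The letters TATAAA, searched on both strands and held by 14.2% of all promoters, occurred in none of the 23 member windows.

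Itga7, the alpha subunit of the laminin receptor of mature fibres, had a log2 level of 5.95 in slow fibres and 5.79 in fast fibres, a difference of 0.16 that was smaller than its software error of 0.20. Its second probe gave 0.20. Itgb1, the beta subunit shared by most matrix-binding integrins, stood at 5.42 in slow and 5.54 in fast fibres, a difference of -0.12, and its second probe gave -0.10. Each probe of the receptor pair thus differed by less than its software error, although under spike-in scaling the values were 0.56 for Itga7 and 0.27 for Itgb1.

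Lama2, the laminin alpha chain of the fibre basement membrane, parted from its receptor. Its brightest probe stood at a log2 level of 4.98 in slow and 2.92 in fast fibres, 4.17-fold higher in slow fibres, with a software error of 0.20 for the log2 difference of 2.06. Over the 9 scalings the difference ran between 1.92 and 2.45. A second Lama2 probe for the same transcript, also detected in both pools, was at 0.35, or 1.27-fold, with a software error of 0.22. The size of the Lama2 difference therefore depends on the probe. Both probes had the same sign, but only the brightest was past 2-fold.

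The laminin chains that join Lama2 in the fibre basement membrane were level or lower in slow fibres. Lamc1, the gamma chain of most laminins, had log2 levels of 3.72 in slow and 4.01 in fast fibres, a difference of -0.29. Lamb2, a beta chain concentrated at the neuromuscular synapse in muscle, had 3.28 in slow and 3.20 in fast fibres, a difference of 0.08 that lay within its software error. Lamb1, the more widespread beta chain, stood at 0.78 in slow and 2.42 in fast fibres and was 3.12-fold higher in fast fibres. Its second probe gave 3.60-fold in the same direction, and the third, detected in fast fibres alone, bounds it at 1.33-fold or more. Of these chains, Lamb1 alone was past 2-fold, as it was under all 9 scalings.

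Chains of vascular basement membranes were lower in slow fibres. Lama4, the alpha chain of endothelial basement membranes, which is also found at the neuromuscular synapse, had log2 levels of -0.81 in slow and 0.63 in fast fibres and was 2.71-fold higher in fast fibres. It was at -0.74 by its second probe and at -0.998, just within 2-fold, under normexp with the 75th percentile. Lama5, an alpha chain of vessels, epithelia and synaptic basement membrane, had 0.44 in slow and 2.01 in fast fibres and was 2.95-fold higher in fast fibres, past 2-fold under all 9 scalings. In bulk pools such as these, fewer cells of a type and less RNA per cell cannot be told apart.

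Lamb3, a beta chain of epithelial basement membranes, went the other way. It stood at -0.16 in slow and -3.29 in fast fibres, 8.79-fold higher in slow fibres, and its second probe, detected in slow fibres alone, bounds it at 9.22-fold or more. Lama3, the alpha chain of the same laminin, was detected in neither pool by either of its probes. Under normexp the Lamb3 difference came down to 1.15, against 3.14 in the main scaling. Lama1, an embryonic and epithelial chain, was detected in neither pool. Lamc3, a chain of nerve and retina, was detected in fast fibres alone, with a bound of 1.21-fold.

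Of the integrin subunits that bind laminin besides Itga7 and Itgb1, Itga6 and Itgb4 were lower in slow fibres. Itga6, found in endothelium, epithelia and platelets, had log2 levels of 1.29 in slow and 2.88 in fast fibres and was 3.01-fold higher in fast fibres, with 2.78-fold by its second probe. It was past 2-fold under all 9 scalings, while the third probe, for another transcript, was detected in neither pool. Itga3, a laminin receptor mainly of epithelia, was at -0.93 in slow and -1.10 in fast fibres by its brightest probe, a difference of 0.17 within the software error. Its second probe gave -1.94, or 3.84-fold higher in fast fibres, so that the probes of Itga3 disagreed by over 2-fold and no direction can be given. Itgb4, the partner of Itga6 in epithelia and nerve sheaths, was at -2.46 in slow and -0.85 in fast fibres, 3.05-fold higher in fast fibres, and within 2-fold at -0.61 and -0.64 under the normexp settings.

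Collagen-binding alpha subunits varied by gene. Itga1, of capillary endothelium and smooth muscle, had -3.21 in slow and -1.24 in fast fibres and was 3.90-fold higher in fast fibres. Its second probe, detected in fast fibres alone, bounds it at 1.22-fold or more, and under the normexp settings the difference was -0.68 and -0.72. Itga11, of fibroblasts, was at -1.45 in slow and -0.50 in fast fibres, 1.93-fold higher in fast fibres and just within the size rule. Itga10, best known from cartilage, was at -0.76 in slow and -1.78 in fast fibres, 2.03-fold higher in slow fibres and just past the rule. It was within 2-fold under 5 of the 9 scalings, and its second probe was undetected. Itga2 was detected in neither pool.

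Subunits of the fibronectin and vitronectin receptors included the most distinct vascular exception. Itga5, the alpha subunit of the main fibronectin receptor, had log2 levels of 0.63 in slow and -1.57 in fast fibres and was 4.61-fold higher in slow fibres, as read by 1 probe. It was past 2-fold under all 9 scalings, at 1.27 to 2.60. Itgav and Itgb5, which pair as a vitronectin receptor, were bright and close in both pools. Itgav was at 3.68 in slow and 3.29 in fast fibres, a difference of 0.38, and Itgb5 at 3.77 in slow and 3.72 in fast fibres, a difference of 0.05 within its software error. Itgb6, an epithelial partner of Itgav, was at 2.96 in slow and 2.39 in fast fibres, 1.48-fold higher in slow fibres, with 1.77-fold by its second probe.

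The remaining subunits of this class were dim or close. Itga9, of lymphatic endothelium and smooth muscle, was at -0.03 in slow and -0.74 in fast fibres, a difference of 0.72, but its second probe gave -0.34. Itga8, of smooth muscle, was at -3.61 in slow and -2.86 in fast fibres, a difference of -0.75. Itgb3, of platelets and vessels, was detected in fast fibres alone, at a signal of 8.48 just above the limit, and Itgb8 in neither pool. Of the 10 vascular subunits, Itga5 alone lay past 2-fold on the slow side, and Itga1, Itga6, Lama4 and Lama5 did on the fast side. The 9 measured on both arrays lay on both sides of 0, with 4 above and 5 below. Their median of -0.75 was the value of Itga8, a dim gene with signals of 10.4 in slow and 16.7 in fast fibres. The median of the 3 muscle subunits was 0.16. The vascular median, again the value of Itga8, was -0.16 and -0.12 under the normexp settings and -0.35 under spike-in scaling.

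**Figure D2:**
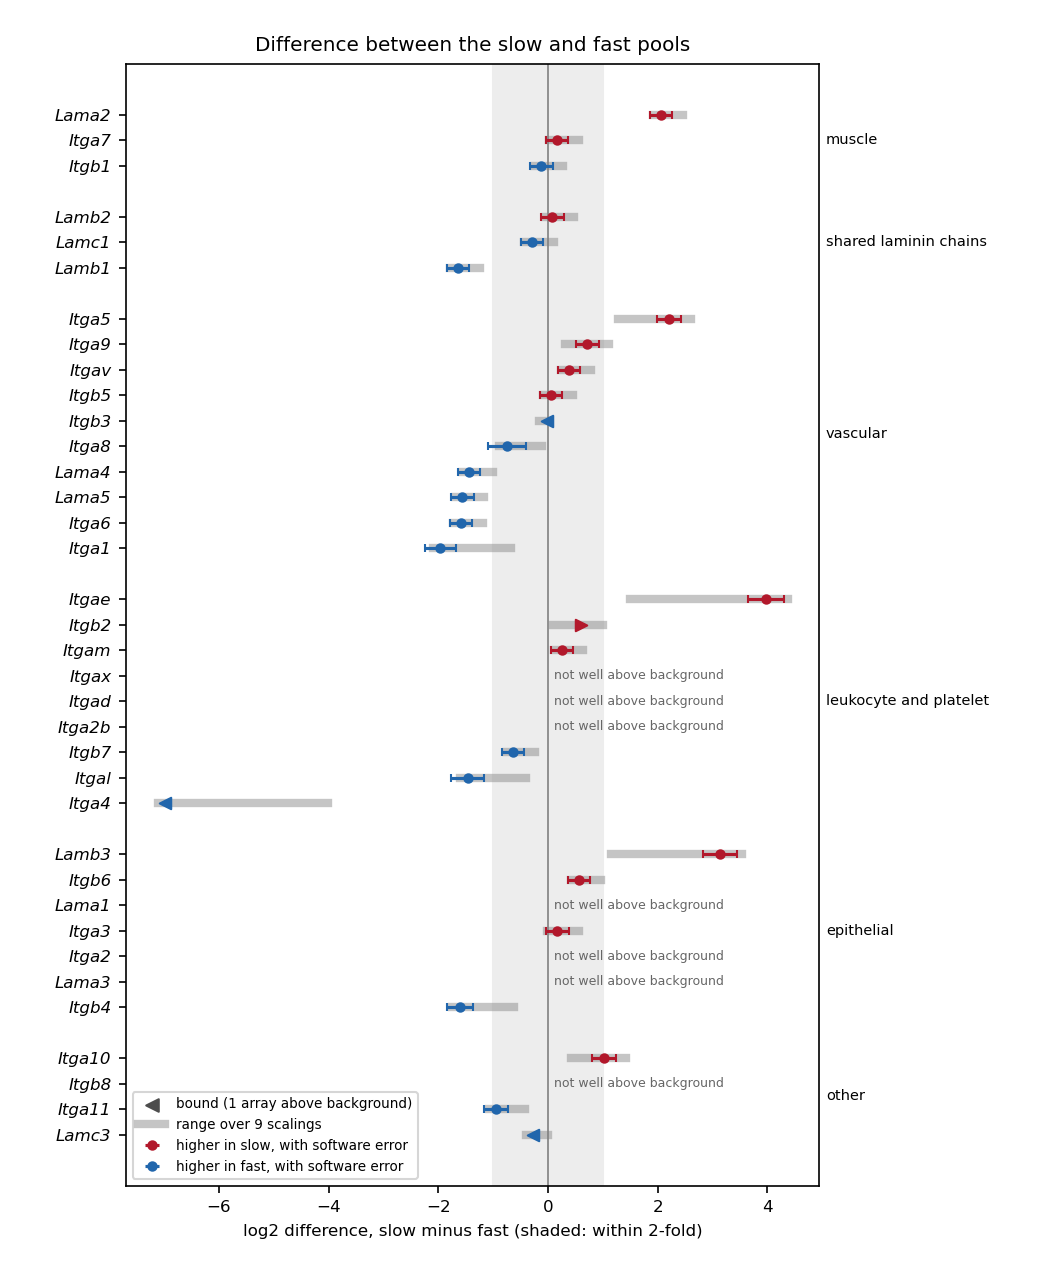
Log2 difference, slow minus fast (horizontal axis), of the named subunit genes by their brightest probes, in the same groups; points carry the software error, triangles are bounds for genes above background on 1 array, grey bars span the 9 scalings and the shaded band is the 2-fold size rule. The grey bars of Lama2, Itga5, Itgae and Lamb3 lie wholly right of the band, and those of Itga4, Itga6, Lama5 and Lamb1 wholly left of it.

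Leukocyte and platelet subunits held the most extreme differences in both directions in the main scaling, though under the normexp settings Lama2, at 2.05 and 1.99, exceeded Itgae on the slow side. Itga4, the alpha subunit of leukocyte receptors for fibronectin and Vcam1, which developing muscle also makes, had a processed signal of 2.35 in slow and 1058 in fast fibres. Its spot was not well above background in slow fibres, so the fast level exceeded it by at least 126-fold, and the bound stayed past 2-fold under all 9 scalings at -7.12 to -4.01. The other Itga4 probe stayed at background in both pools, at signals of 2.30 in slow and 4.44 in fast fibres. The Itga4 contrast rests on 1 probe.

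Itgae, the alpha subunit of an integrin of epithelium-resident T cells, stood apart the other way. It had log2 levels of 0.29 in slow and -3.68 in fast fibres and was 15.7-fold higher in slow fibres, as read by 1 probe, with a software error of 0.33 for the difference of 3.97. The fast signal lay near the lower limit, at 9.46 on an array whose dimmest detected probe had 7.21, and under normexp the difference came down to 1.5. It remained past 2-fold under all 9 scalings.

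Itgb7, the beta subunit that pairs with Itga4 and Itgae, was closer between the pools. Its brightest probe, for a predicted transcript, was at 4.45 in slow and 5.08 in fast fibres, 1.55-fold higher in fast fibres. Its other probe was detected in neither pool. Itgam, a myeloid alpha subunit, was likewise bright by 1 probe, at 4.63 in slow and 4.38 in fast fibres, 0.25 apart, and its other probe was detected in neither pool. Itgb2, the obligate beta partner of Itgam, was detected in slow fibres alone, near the limit with a signal of 11.5 and a bound of 1.52-fold. Itgal, the alpha subunit of the lymphocyte receptor for Icam1, was at -3.11 in slow and -1.65 in fast fibres, 2.76-fold higher in fast fibres, and at -0.41 and -0.44 under the normexp settings. Itgad, Itgax and the platelet subunit Itga2b were detected in neither pool.

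Of the 10 members with several probes measured on both arrays, 6 had their probes within 0.5 log2 units of each other, with a median gap of 0.24. The probes of Itga3, Itga9 and Lama2 were over 1 log2 unit apart, and those of Itga3 and Itga9 had opposite signs. For 17 members there was a single probe with a RefSeq name, so there was no second reading here of Itga5, Itgae, Itgal, Itgb4 or Lama5, all of which were past 2-fold.

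**Figure D3:**
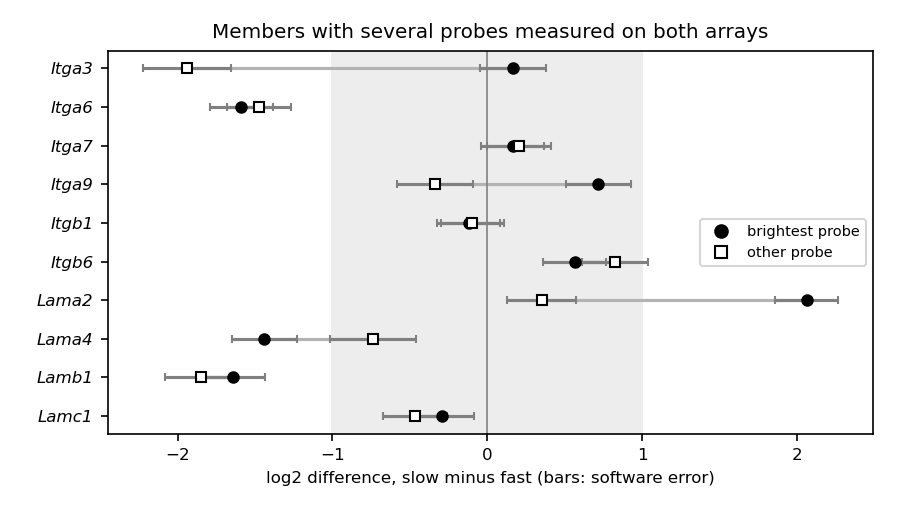
Log2 difference, slow minus fast (horizontal axis), by each probe of the 10 genes with several probes measured on both arrays; filled circles are the brightest probe, open squares the other, bars the software error, and the shaded band the 2-fold size rule. Probes of Itga7, Itgb1, Itga6, Lamb1 and Lamc1 lie close together, and those of Itga3, Itga9 and Lama2 lie over 1 log2 unit apart.

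Genes that act with integrins, inside the cell or in its membrane, were within 2-fold about as often as genes at large. In the main scaling a smaller share of them lay past 2-fold on the slow side. Of 25 integrin adhesion genes, 23 were detected, of which 1 (4.35%) lay past 2-fold on the slow side, 4 (17.4%) on the fast side and 18 (78.3%) within the size rule or its bounds, against 11.2%, 13.9% and 74.9% of all genes. The 22 measured on both arrays had a median of -0.0035. Lims1, an adaptor that binds integrin-linked kinase, was 6.56-fold higher in slow fibres, at log2 levels of 4.02 in slow and 1.31 in fast fibres, and its second probe gave 4.96-fold. Its relative Lims2 went the other way, 2.11-fold higher in fast fibres. Parva, a partner of the same kinase, and the actin crosslinker Flna had differences of -1.20 and -1.17, but a second Flna probe gave a difference of 0.02. The other gene past 2-fold was the tetraspanin gene Cd9, 2.04-fold higher in fast fibres; it and Lims2 were named after their values were seen. None of the 4 was past 2-fold in fast fibres under spike-in scaling or normexp with the 75th percentile.

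Other basement membrane genes and matrix receptors were mostly lower in slow fibres, as were Lamb1, Lama4 and Lama5. Lama2 and Lamb3 went the other way by their brightest probes. Of the 9 detected laminin chains, 3 (33.3%) lay past 2-fold on the slow side and 3 (33.3%) on the fast side. Of the 22 other genes, 20 were detected. Among these, 1 (5%) lay past 2-fold on the slow side and 12 (60%) on the fast side. The shares of all genes were 11.2% and 13.9%. The 18 measured on both arrays had a median of -1.48. Thbs1, a matrix glycoprotein, was 6.01-fold and Nid1, the nidogen that links laminin to collagen IV, 3.68-fold higher in fast fibres. The exception was Bcam, a cell surface receptor for laminin chains of the Lama5 type, at 3.22 in slow and 0.11 in fast fibres, 8.61-fold higher in slow fibres, as read by 1 probe. Dag1, the dystroglycan through which fibres also hold the Lama2 laminin, stood at 6.02 in slow and 5.79 in fast fibres, a difference of 0.23, and was named after its values were seen.

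Markers of other cell types differed between the pools as well. Of all detected genes, 11.2% were past 2-fold in slow and 13.9% in fast fibres. All 11 endothelial markers had differences below 0, 9 of them past 2-fold, with a summed level of 10.8 in slow and 41.0 in fast fibres in units of the 75th percentile. Smooth muscle and pericyte markers had 1 of 8 past 2-fold in slow and 4 in fast fibres; the median was -0.85, with summed levels of 1095 in slow and 1189 in fast fibres. Acta2, an actin gene whose other probes were also level, made up nearly all of both sums, and the other 7 genes summed to 21.1 in slow and 37.0 in fast fibres. Fibroblast markers, beside Itga11 and Lamb1, had 9 of 10 past 2-fold in fast fibres and sums of 60.1 in slow and 237 in fast fibres. No endothelial, smooth muscle or fibroblast marker was below background on both arrays. Schwann cell markers, beside Itgb4, had 1 of 7 past 2-fold in slow and 4 in fast fibres, with sums of 2.98 in slow and 7.28 in fast fibres. The slow one was Mbp, a myelin gene, at 5.08-fold by its brightest probe, while the other probes were detected in fast fibres alone, with bounds of 3.09-fold and 1.57-fold.

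Of 14 leukocyte markers, 7 were detected, with none past 2-fold in slow and 3 (42.9%) in fast fibres, against 13.9% of all genes in fast fibres. The sums over all 14 were 7.39 in slow and 25.1 in fast fibres, or 2.94 in slow and 5.82 in fast fibres without Cd68. The defining leukocyte gene Ptprc, the myeloid genes Lyz2, Adgre1, Fcgr3 and Tyrobp, and Cd53 and Laptm5 were detected in neither pool, while Itgam and Itgb7 were detected in both. Cd3e, a T cell gene, differed by -0.02 by its brightest probe, beside the value of 3.97 for Itgae, but its second probe was detected in fast fibres alone, 4.56-fold higher there or more. Of 6 platelet markers, 3 were detected, of which 2 were past 2-fold in fast fibres. The sums over all 6 were 0.31 in slow and 0.57 in fast fibres, and Ppbp, Gp9 and Gp5 were not well above background. Of 6 epithelial markers, beside Lamb3, 2 were detected, and both were past 2-fold in fast fibres. The sums over all 6 were 0.35 in slow and 1.11 in fast fibres, and Epcam, Cdh1, Krt5 and Krt14 were not well above background. Satellite cells are the stem cells that lie between fibre and basement membrane. Of their 7 markers, 5 were detected, with none past 2-fold in slow and 2 (40%) in fast fibres, namely Vcam1 at 3.22-fold and Chrdl2 at 4.08-fold or more. The median of the 4 satellite cell markers measured on both arrays was 0.40. The sums over all 7 were 25.2 in slow and 19.8 in fast fibres, or 9.0 in slow and 8.2 in fast fibres without Sdc4. Myf5 and Calcr were detected in neither pool. The part of these markers in the subunit differences was not tested.

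**Figure D4:**
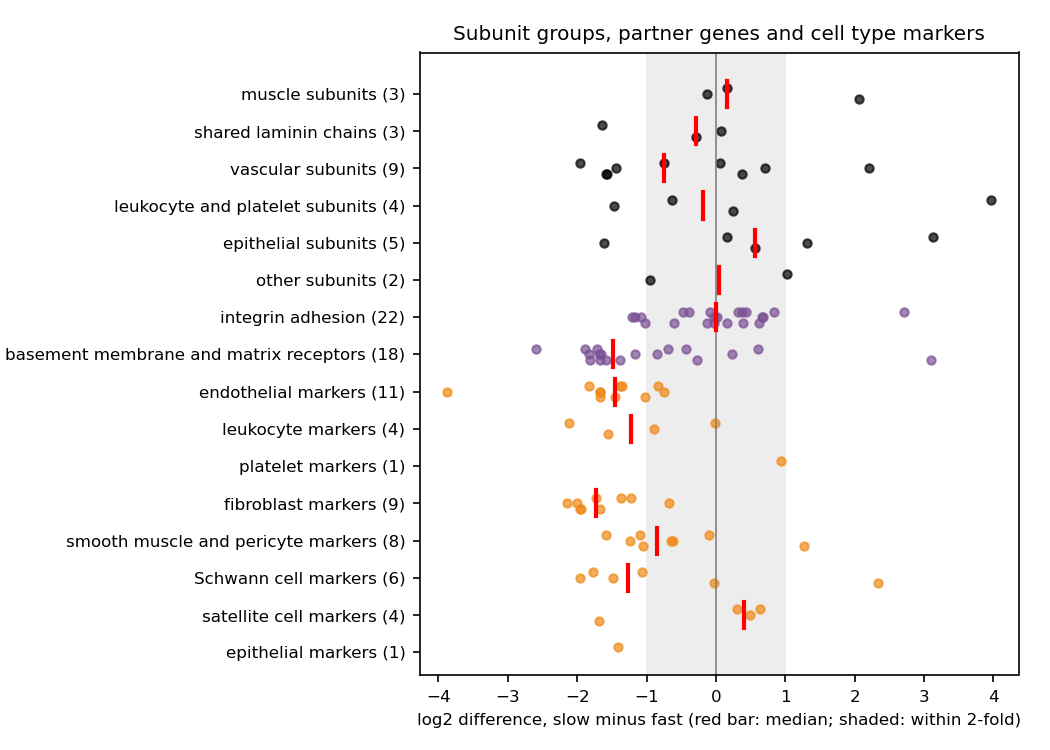
Log2 difference, slow minus fast (horizontal axis), of genes measured on both arrays in each subunit group (black), in the 2 partner lists (purple) and in cell type markers (orange), with the number of genes in brackets, red bars at the medians and the 2-fold size rule shaded. The muscle subunits and the adhesion list centre near 0 (medians 0.16 and -0.0035). Most basement membrane genes (median -1.48) and all endothelial markers (-1.45) lie to the left. The vascular subunits (median -0.75) spread over both sides, from -1.96 to 2.21.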

How the data were processed

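The intensity values in the deposited scanner files are processed signals from which Agilent Feature Extraction 12.0.3.1 (named in the submitters' processing notes) had subtracted background and spatial trend, per the file headers, with 0 or 1 flags for spots above background, saturated or deviant, and with no normalization between arrays. The intensities in the authors' deposited value table equalled those signals times 2.45 on the slow and 2.83 on the fast array, with column medians of 27.1 and 30.1, no log and no centring, and what they are scaled to stays unknown. The labels' protocols give 0.1 µg of RNA as labelling input.

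Control spots and 159 spots with an outlier flag were left out, repeats of a probe were averaged on the log2 scale, and the 75th percentile over the 56596 probes of each array was subtracted. Probe accessions, stripped of versions, were looked up in RefSeq's gene list (assembly GRCm38.p6, names only, since the array design refers to build mm9), which named 33763 probes (59.7%). Each gene was read by the probe with the highest mean processed signal, and the members had 59 probes, none removed. Where 1 array was above background, a bound was taken against the higher of the dim signal and the lowest signal above background on that array. With 1 array per pool no test was made, and 2-fold served as size rule. On simulated data with 200 changed genes among the 14006 that were above background on both simulated arrays, 100.0% were called with the right sign. Every change put in exceeded 2-fold, the added noise was small, and the changed genes were set above background on both arrays. A right call was thus nearly fixed in advance, and the simulation cannot speak for dim genes or differences near 2-fold.

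Alternatives changed the scaling, background correction (normexp on median spot and background signals, offset 50), source of values, probe rule, dim filter and size rule. The 9 scalings named are the main one, the median, the 75th percentile over detected probes, quantile, loess (span 0.3), spike-in (8 of 10 controls), both normexp settings and the authors' table. All members are counted and all but 1, which is not reported here, are named; of each other list the rule took the 2 highest and 2 lowest past 2-fold measured on both arrays, or else the farthest from 0, and of the marker lists only those that a result turned on are given. The members, groups and lists were chosen with earlier results of these data known. Tools were R 4.3.3 with limma 3.58.1 and Python 3.11.15 with pandas 2.3.3.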

Additional observations from a re-analysis of the deposited data

How the results depend on the processing

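No paired analysis was possible because each pool has 1 array. All values are slow minus fast. The members past 2-fold in fast fibres numbered 8 and ran from 4 to 11 over the alternatives. They numbered 4 and 5 under normexp with the 75th percentile and with quantile normalization. Over all genes, normexp also lowered the fast share, from 13.9% to 6.54% and 6.77%. The fast members numbered 5 under a 3-fold rule, and 11 under a 1.5-fold rule and without a filter on dim probes. Those in slow fibres numbered 6 and ran from 4 to 8 over the alternatives. The median of all members, 0.07, lay near 0 and changed sign to -0.0188 with the percentile over detected probes, -0.0008 with quantile normalization, -0.0355 with loess, -0.0067 with normexp and quantile normalization, -0.0712 in the authors' table, -0.028 by the median over probes and -0.0164 without a filter on dim probes. Spike-in scaling moved it to 0.46, the muscle median to 0.56 and the vascular median to -0.35, and turned the leukocyte and platelet median of -0.19 to 0.20. Normexp moved the vascular median to -0.16 and -0.12. Adhesion genes past 2-fold numbered 5 in slow and 0 in fast fibres under spike-in scaling, 0 in fast fibres under normexp with the 75th percentile and under a 3-fold rule, 1 in fast fibres under normexp with quantile normalization, and 5 in slow fibres under a 1.5-fold rule. Basement membrane genes numbered 2 in slow fibres under that rule. Of the alternatives' values for single members, 337 kept their side of 2-fold, of which 15, over 7 members and all within 2-fold, changed sign or came to 0, 13 came within 2-fold, 6 passed it and 0 turned round past 2-fold; the cause was not tested. Over all genes the scalings shifted the median by less than 0.1, except spike-in scaling (0.39) and the authors' table (-0.14). Dim spots limit Itga1, Itga4, Itga8, Itgae, Itgal, Itgb2, Itgb3, Itgb4, Lamb3 and Lamc3.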
